A study of Rattus norvegicus with 14 samples.

Results

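Hippocampi of Wistar rats that had received pentylenetetrazole (PTZ) and the compound Q808 were compared with hippocampi of control rats, over all genes measured. The comparison holds 9 of the 14 libraries of the study. Of these, 5 came from the PTZ + Q808 group (written PTZ+Q808 here), which belongs to the PTZ-induced seizure model, and 4 came from the vehicle control group. The remaining 5 rats received PTZ and vehicle. They entered the fit only to estimate the spread between rats, and their levels are given beside some genes. All animals were wild type, weighed 180 to 220 g and were divided into groups at random. RNA was extracted with TRIzol, captured on mRNA beads and sequenced on a BGI T7 instrument. The labels used here state no dose, route, sampling time or sex. Control rats received neither PTZ nor Q808, so the contributions of the 2 agents to a difference from control cannot be told apart. Q808 is known here by its code name alone.

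PTZ is a convulsant that blocks the chloride channel of GABA-A receptors, the main fast inhibitory receptors of the brain. Strong firing of hippocampal neurons opens calcium channels and NMDA receptors, and calcium-dependent kinases then act on transcription factors already bound to DNA, such as CREB and the serum response factor. Within minutes these switch on immediate early genes, which include the Fos and Egr families and Npas4, together with genes that damp the response, such as phosphatases of MAP kinases. A later wave of genes alters synapses, receptors and growth factor signalling.

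The values were FPKM, fragment counts scaled to transcript length and library total. A gene was tested where it reached 1 FPKM in at least 4 libraries, which held for 12744 of 22601 listed genes. Differences are given as log2 changes, the mean of log2(FPKM + 1) in PTZ+Q808 minus that in control, with the standard error (SE), and genes with an adjusted p under 0.05 (limma, Benjamini-Hochberg over all tested genes) are described as called. Summed FPKM was 390584 to 419358 over the 9 libraries, whose pairwise Spearman correlations over genes were 0.982 to 0.988. Transcripts of the hippocampal fields were present in every library. The summed level of CA1 markers was 433 to 523 FPKM in PTZ+Q808 and 386 to 525 FPKM in control, and that of dentate granule cell markers was 203 to 290 FPKM in PTZ+Q808 and 173 to 233 FPKM in control.

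Some libraries stood apart in transcripts of other tissues. In PTZ+Q808 replicate 3, transcripts of the pituitary hormones prolactin (Prl) and growth hormone (Gh1) were at 395 and 206 FPKM and were at most 0.710 and 0.560 FPKM in the other 8 libraries. Control replicate 2 held the striatal transcripts Drd2 at 29.4 FPKM and Ppp1r1b at 240 FPKM, against at most 2.27 and 38.8 FPKM elsewhere. Ttr, the main secreted product of choroid plexus, was 329 FPKM in PTZ+Q808 replicate 1 and 54.5 FPKM in control replicate 3, and 1315 to 7125 FPKM in the other 7 libraries. Y-linked transcripts were present in PTZ+Q808 replicates 1, 2 and 4 and in control replicates 1 and 2. Calls without these libraries are given at the end.

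Of the 12744 genes, 366 (2.87%) differed between PTZ+Q808 and control. In PTZ+Q808, 247 genes (1.94%) were higher and 119 (0.934%) were lower. Most differences were small: the median log2 change of the called genes was 0.39 for those that rose and -0.34 for those that fell. Only 35 called genes passed 1.5-fold, 28 upward and 7 downward, and the 10 that passed 2-fold all rose. These folds are of FPKM + 1, which shrinks changes of genes of low level. C1qtnf9, for example, had a mean of 0.526 FPKM in PTZ+Q808 and 1.95 FPKM in control, and its ratio on this scale was 0.534. The PTZ+Q808 and control libraries did not overlap for 337 of the 366 called genes. Over all tested genes 1136 (8.91%) showed no overlap, 605 (4.75%) with PTZ+Q808 above and 531 (4.17%) with it below. The genes that rose had a median level of 14.4 FPKM, those that fell 9.01 FPKM, and all tested genes 9.67 FPKM. Across all tested genes the median log2 change was -0.02, and 44.7% of genes had a positive change.

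**Figure D1:**
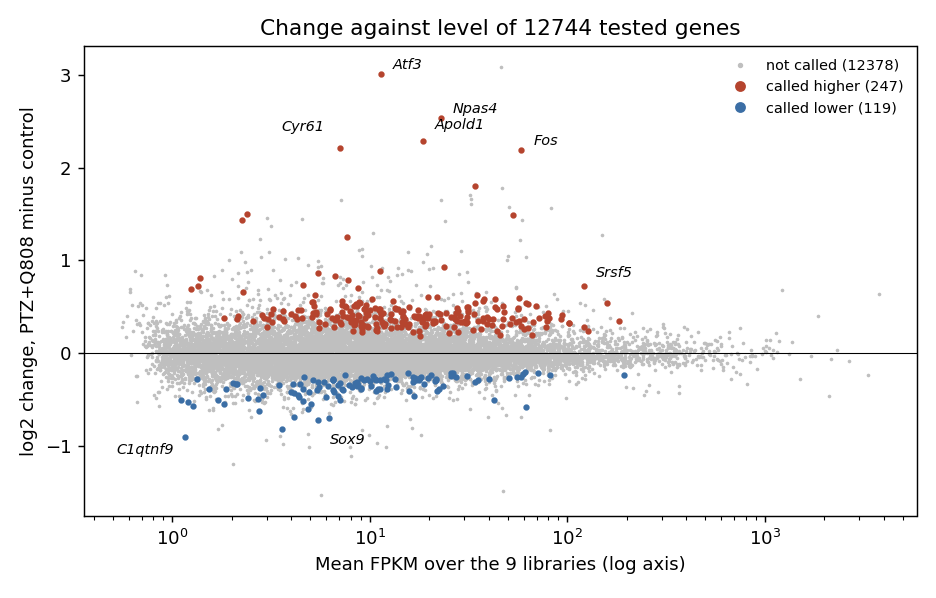
Log2 change of PTZ+Q808 minus control (vertical axis) against the mean FPKM over the 9 libraries (horizontal, log axis) for the 12744 tested genes. Red points are the 247 genes called higher and blue points the 119 called lower. The largest changes point upward, and called genes lie at low and high levels alike.

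Genes of the early response to neuronal firing were among the largest rises. A list of 45 such genes, most of them transcription factors, held the Fos, Jun, Egr and Nr4a families and related genes. All 45 were tested, and 7 (15.6%) were called, against 2.87% of all genes. Of these, 6 rose (Atf3, Npas4, Fos, Gadd45g, Maff and Bhlhe40) and 1 fell (Ier5l). The median log2 change of the list was 0.92, and 43 of the 45 members had a positive change. This list and those below were chosen with earlier results of these data known. A share of calls above that of all genes is therefore no independent support.

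Atf3, a stress-induced member of the ATF/CREB family, had 24.5, 3.79, 29.1, 1.98 and 40.2 FPKM in PTZ+Q808 replicates 1 to 5 and 0.680, 0.527, 0.661 and 0.825 FPKM in control replicates 1 to 4. Every PTZ+Q808 library lay above every control library, but replicates 2 and 4 were far below the other 3. The log2 change was 3.02 ± 0.745 (SE, adjusted p = 0.0460). Npas4, a neuron-specific factor induced by calcium entry that shapes inhibitory synapses, had 61.6, 15.6, 48.5, 6.64 and 56.9 FPKM in PTZ+Q808 and 3.10, 4.32, 5.17 and 4.05 FPKM in control. Its log2 change was 2.54 ± 0.591 (adjusted p = 0.0377), and the groups did not overlap. Fos, the AP-1 subunit used as a marker of recent firing, had 127, 38.2, 126, 27.0 and 142 FPKM in PTZ+Q808 and 11.2, 13.3, 23.4 and 17.0 FPKM in control. The same replicates 2 and 4 were the lowest of PTZ+Q808, and the log2 change was 2.19 ± 0.530 (adjusted p = 0.0422).

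Gadd45g, a growth arrest protein tied to DNA demethylation, had 72.8, 25.1, 54.1, 17.6 and 87.7 FPKM in PTZ+Q808 and 9.19, 13.05, 13.96 and 11.53 FPKM in control, a log2 change of 1.80 ± 0.453 (adjusted p = 0.0482). Maff, a small Maf protein without a transactivation domain, had 4.16, 3.02, 5.33, 1.59 and 3.58 FPKM in PTZ+Q808 and 0.323, 0.701, 0.446 and 1.03 FPKM in control, a log2 change of 1.44 ± 0.278 (adjusted p = 0.0226). Bhlhe40, a repressor of the circadian loop that also responds to activity, rose less, by 0.63 ± 0.156 (adjusted p = 0.0477). Ier5l, an immediate early response 5-like gene, had 3.76, 3.69, 4.90, 4.49 and 3.28 FPKM in PTZ+Q808 and 6.01, 5.11, 7.68 and 6.62 FPKM in control. It fell by 0.55 on the log2 scale (SE 0.137, adjusted p = 0.0482), opposite to the other called members. Fosb, singled out after its values were seen, had the largest log2 difference of the list, 3.08 ± 0.809, and did not pass the test (adjusted p = 0.0547).

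The PTZ+Q808 libraries fell apart in this list. Its mean log2(FPKM + 1) was 4.55, 3.62, 4.58, 3.35 and 4.64 in PTZ+Q808 replicates 1 to 5 and 2.97, 3.09, 3.38 and 3.29 in control replicates 1 to 4. Replicates 2 and 4 thus lay near the controls, replicate 4 within their range, and replicates 1, 3 and 5 lay far above. For 35 of the 45 members (77.8%), replicates 2 and 4 were the 2 lowest PTZ+Q808 libraries, which was so for 9.42% of all tested genes. Oligodendrocyte markers separated the same libraries in the other direction: their list mean was 6.25, 6.84, 6.16, 6.89 and 6.33 in PTZ+Q808, highest in replicates 2 and 4, and 7.07, 7.30, 6.40 and 6.38 in control, highest in replicates 1 and 2, where the early-response list was lowest. The part of these cells in the result was not tested. Of the PTZ+Q808 libraries, both without Y-linked transcripts (3 and 5) were high for the early-response list, and of those with them 1 was high and 2 and 4 were low. In control the libraries without Y-linked transcripts had 3.38 and 3.29 and those with them 2.97 and 3.09. The log2 change of Fos was 1.98 among the libraries with Y-linked transcripts and 2.68 among those without, and that of Npas4 was 2.10 and 3.26. In the 5 rats that received PTZ and vehicle the same list mean was 3.82, 3.67, 4.07, 4.85 and 3.55. A list of 25 effector genes of activity, such as neurotrophins and synaptic scaffolds, had 23 tested members and 0 called (limma). Of these, 21 had a positive change, the median log2 change was 0.46, and replicates 2 and 4 were the 2 lowest PTZ+Q808 libraries for 15 members.

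**Figure D2:**
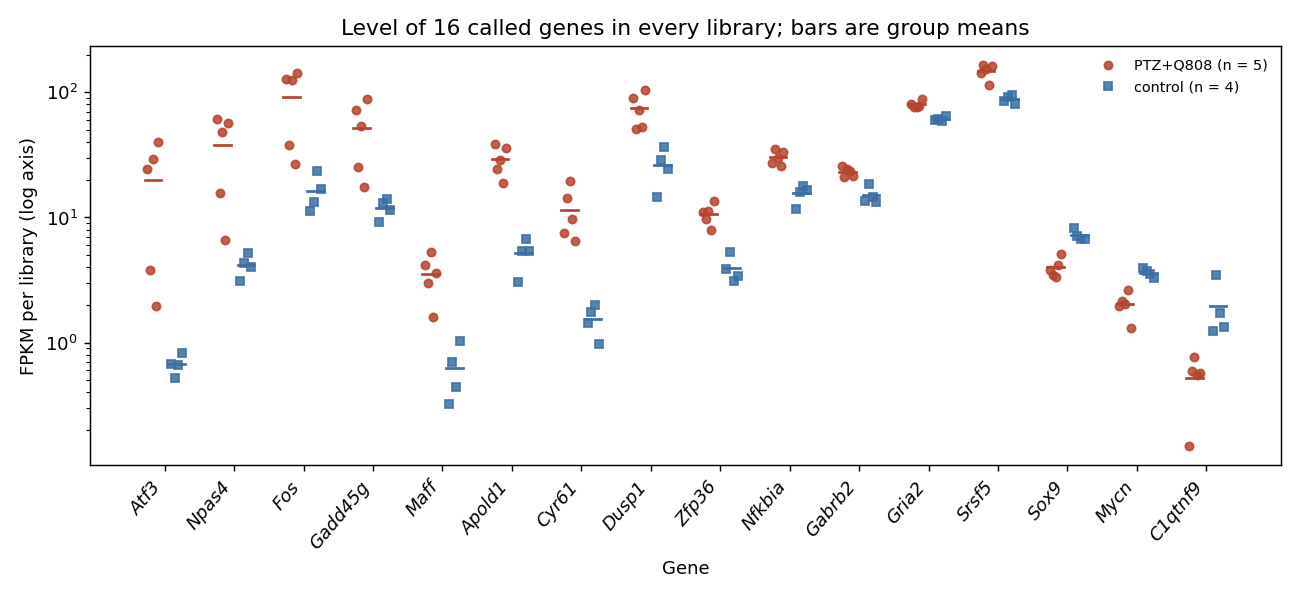
FPKM (vertical, log axis) of 16 called genes in each of the 5 PTZ+Q808 libraries (red circles) and 4 control libraries (blue squares), with horizontal bars at the group means. Atf3, Npas4, Fos and Gadd45g spread widely within PTZ+Q808, whereas Apold1, Zfp36, Nfkbia, Gabrb2, Gria2 and Srsf5 spread less there.

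Some genes of the vascular response, of MAP kinase dephosphorylation and of AU-rich transcript decay, and 1 of the NF-kB pathway, also rose. Apold1, a membrane-associated protein of activated endothelial cells, had 38.6, 24.5, 29.1, 18.7 and 35.8 FPKM in PTZ+Q808 and 3.07, 5.45, 6.78 and 5.36 FPKM in control. Its log2 change was 2.29 ± 0.279 (adjusted p = 0.00823), and rats given PTZ and vehicle had 16.8 to 46.7 FPKM. Cyr61, a matricellular protein of the CCN family named Ccn1 in RefSeq, had 7.53, 14.3, 19.7, 9.67 and 6.44 FPKM in PTZ+Q808 and 1.44, 1.74, 2.01 and 0.983 FPKM in control, a log2 change of 2.21 ± 0.358 (adjusted p = 0.0128). Here replicate 5, high for Fos, was the lowest PTZ+Q808 library. Sox18, a transcription factor of endothelial cells, went the other way, with 1.76 to 3.47 FPKM in PTZ+Q808 and 3.34 to 6.51 FPKM in control (log2 change -0.81 ± 0.198, adjusted p = 0.0429), and its groups overlapped. These were the 3 called of 21 tested genes of vascular response (14.3%). The list's median log2 change was 0.24, and 16 of 21 members had a positive change.

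Meningeal fibroblast markers differed between libraries as well. Their list mean was 4.29, 4.05, 4.41, 2.69 and 3.05 in PTZ+Q808 and 3.00, 3.10, 2.92 and 3.27 in control, so replicates 1, 2 and 3 were high and replicates 4 and 5 were not. All 15 members were tested, 15 had a positive change, with a median of 0.63, and 0 were called (limma). Apold1 was 18.7 and 35.8 FPKM in replicates 4 and 5, and Cyr61 was 9.67 and 6.44 FPKM there, above every control. The part of meningeal cells in the rises of Apold1 and Cyr61 was not tested.

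Dusp1, the phosphatase that inactivates MAP kinases in the nucleus, had 90.4, 51.3, 71.9, 53.2 and 105 FPKM in PTZ+Q808 and 14.5, 29.0, 36.8 and 24.2 FPKM in control, a log2 change of 1.49 ± 0.286 (adjusted p = 0.0226). Errfi1, an inhibitor of the EGF receptor, rose by 0.83 ± 0.185 (adjusted p = 0.0331), with 4.89 to 11.5 FPKM in PTZ+Q808 and 3.67 to 4.72 FPKM in control. Dusp10, a phosphatase of JNK and p38, rose by 0.35 ± 0.0879 (adjusted p = 0.0482). These were the 3 called of 17 tested MAP kinase phosphatases and Sprouty-type inhibitors (17.6%). The list's median log2 change was 0.10, and 11 of 17 members had a positive change.

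Zfp36, the protein that marks AU-rich transcripts for decay, had 11.0, 9.70, 11.3, 7.94 and 13.4 FPKM in PTZ+Q808 and 3.87, 5.34, 3.08 and 3.39 FPKM in control. The lowest PTZ+Q808 library stood well above the highest control, and the log2 change was 1.25 ± 0.174 (adjusted p = 0.00823). The neuronal ELAV proteins, which bind the same kind of element and stabilise transcripts, rose too: Elavl4 by 0.45 ± 0.0858 (adjusted p = 0.0226) and Elavl2 by 0.33 ± 0.0828 (adjusted p = 0.0465). With Hnrnpd they made 4 called of 18 tested AU-rich element proteins (22.2%). That list's median log2 change was 0.11, and 15 of 18 members had a positive change. Nfkbia, the inhibitor that holds NF-kB in the cytoplasm, had 27.4, 35.4, 29.6, 25.8 and 33.5 FPKM in PTZ+Q808 and 11.8, 16.1, 17.9 and 16.4 FPKM in control, a log2 change of 0.93 ± 0.133 (adjusted p = 0.00893). It was the only one called of 20 tested NF-kB pathway genes, whose median log2 change was -0.04. Nfkbia, Dusp1 and Errfi1 also belong to a list of 19 tested genes that glucocorticoids induce. In that list 3 rose and none fell (15.8%, against 2.87% of all genes), with a median of 0.40. Of 19 circadian genes, 3 rose and none fell (15.8%, against 2.87% of all genes). Ciart, a repressor within the clock, rose by 0.78 ± 0.193 (adjusted p = 0.0451), Nr1d2, a nuclear receptor of the clock, by 0.28 ± 0.0660 (adjusted p = 0.0387), and Bhlhe40 as given above.

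CREB and the serum response factor are known to act through short motifs near the start of immediate early genes, so the promoters of the 10 genes that rose past 2-fold were searched for them. The 10 genes were Atf3, Npas4, Apold1, Cyr61, Fos, Gadd45g, Tmem252, Dusp1, Maff and Zfp36. Of them 8, all but Atf3 and Fos, had a promoter in the RefSeq table (build GRCr8). The motifs searched on both strands in the 250 bases before each start were the full cAMP response element (TGACGTCA), its core (TGACG, which the full element contains), the AP-1 site (TGANTCA), the CArG box of the serum response factor, the E-box (CACGTG) and the EGR site (GCGNGGGCG). The full element was in 2 of the 8 promoters and its core in 4, a CArG box was in 1, an E-box in 3, the EGR site in 2, and the AP-1 site in none. The last 130 bases before the start are shown for the 5 genes in which one of these lay close by, 5′ to 3′ on the strand of the gene, with the element, core or CArG box in capitals.
Maff, chr7:112792657-112792786, plus strand: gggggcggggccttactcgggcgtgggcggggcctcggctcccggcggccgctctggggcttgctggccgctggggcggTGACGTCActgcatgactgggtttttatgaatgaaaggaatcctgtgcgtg
Dusp1, chr10:17184723-17184852, plus strand: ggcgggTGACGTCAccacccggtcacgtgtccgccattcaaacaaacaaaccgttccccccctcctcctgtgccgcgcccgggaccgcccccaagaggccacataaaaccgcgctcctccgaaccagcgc
Apold1, chr4:169552469-169552598, plus strand: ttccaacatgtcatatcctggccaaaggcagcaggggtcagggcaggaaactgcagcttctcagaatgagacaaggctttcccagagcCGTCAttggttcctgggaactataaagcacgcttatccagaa
Cyr61, chr2:237225690-237225819, minus strand: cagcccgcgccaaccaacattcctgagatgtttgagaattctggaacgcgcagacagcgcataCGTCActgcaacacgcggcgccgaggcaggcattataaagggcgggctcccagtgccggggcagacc
Zfp36, chr1:92799109-92799238, minus strand: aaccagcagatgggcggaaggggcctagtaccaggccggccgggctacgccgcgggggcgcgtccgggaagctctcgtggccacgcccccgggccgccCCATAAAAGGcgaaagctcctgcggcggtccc

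The full element began 124 bases before the start of Dusp1 and 51 bases before that of Maff. The core alone began 42 bases before the start of Apold1 and 67 bases before that of Cyr61, and the CArG box began 32 bases before that of Zfp36. Among all genes that rose, 210 of 247 (85.0%) have a promoter in the table. The core was in 39.0% of those, against 28.0% of the promoters of the tested genes and 19.0% of all 27457 promoters of this length. The full element was in 3.33% of the promoters of genes that rose, 2.87% of those of tested genes and 1.70% of all. The AP-1 site, CArG box, E-box and EGR site were in 4.29%, 1.43%, 10.5% and 11.0% of the promoters of genes that rose. Their shares among the promoters of tested genes were 4.14%, 1.12%, 8.24% and 9.11%. For the genes that fell 79.0% have a promoter in the table, under the minimum of 80% set for such a comparison, so that set was not compared. A match gives the letters in the window and no evidence of binding.

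A transcript of the receptor that PTZ blocks rose. Gabrb2, the beta2 subunit of the GABA-A receptor, had 26.0, 21.0, 24.3, 23.5 and 21.3 FPKM in PTZ+Q808 and 13.6, 18.6, 14.7 and 13.4 FPKM in control, a log2 change of 0.60 ± 0.0882 (adjusted p = 0.00893). Every PTZ+Q808 library exceeded every control, and the 5 PTZ+Q808 libraries lay close together. In rats given PTZ and vehicle, Gabrb2 was 18.7 to 21.4 FPKM. Outside the naming rule, Gabra2 came near the threshold (log2 change 0.40 ± 0.102, adjusted p = 0.0530), and Gabrd, the delta subunit of extrasynaptic receptors in dentate granule cells, had a change of -0.49 ± 0.176 that did not pass (adjusted p = 0.136). Genes for GABA synthesis, uptake and chloride transport had 0 calls among 16 tested (limma) and a median of -0.03.

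In addition, 3 of the 4 pore-forming subunits of the AMPA receptor, the main fast excitatory receptor, rose. Gria2, the subunit that makes the channel impermeable to calcium, had 80.8, 77.0, 76.8, 77.6 and 88.4 FPKM in PTZ+Q808 and 60.6, 60.8, 59.1 and 64.3 FPKM in control, a log2 change of 0.38 ± 0.0864 (adjusted p = 0.0352). Gria3 had 37.4 to 40.1 FPKM in PTZ+Q808 and 29.7 to 32.5 FPKM in control (log2 change 0.34 ± 0.0683, adjusted p = 0.0241). Gria4 had 15.5 to 18.4 FPKM in PTZ+Q808 and 10.9 to 14.1 FPKM in control (log2 change 0.37 ± 0.0826, adjusted p = 0.0348). Gria1, named after its values were seen, had a change of -0.11 ± 0.0938 that did not pass (adjusted p = 0.549). The 3 were the only calls among 18 tested AMPA receptor genes (16.7%), which include auxiliary subunits, and the list's median was 0.04.

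NMDA receptor genes, kainate receptor genes and metabotropic glutamate receptor genes had 0 calls each in limma among 11, 7 and 10 tested, with medians of -0.04, 0.08 and 0.11. Camk2b, the beta subunit of the calcium-dependent kinase at NMDA receptors, had 246 to 350 FPKM in PTZ+Q808 and 312 to 344 FPKM in control (log2 change -0.15 ± 0.0799, adjusted p = 0.319).

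**Figure D3:**
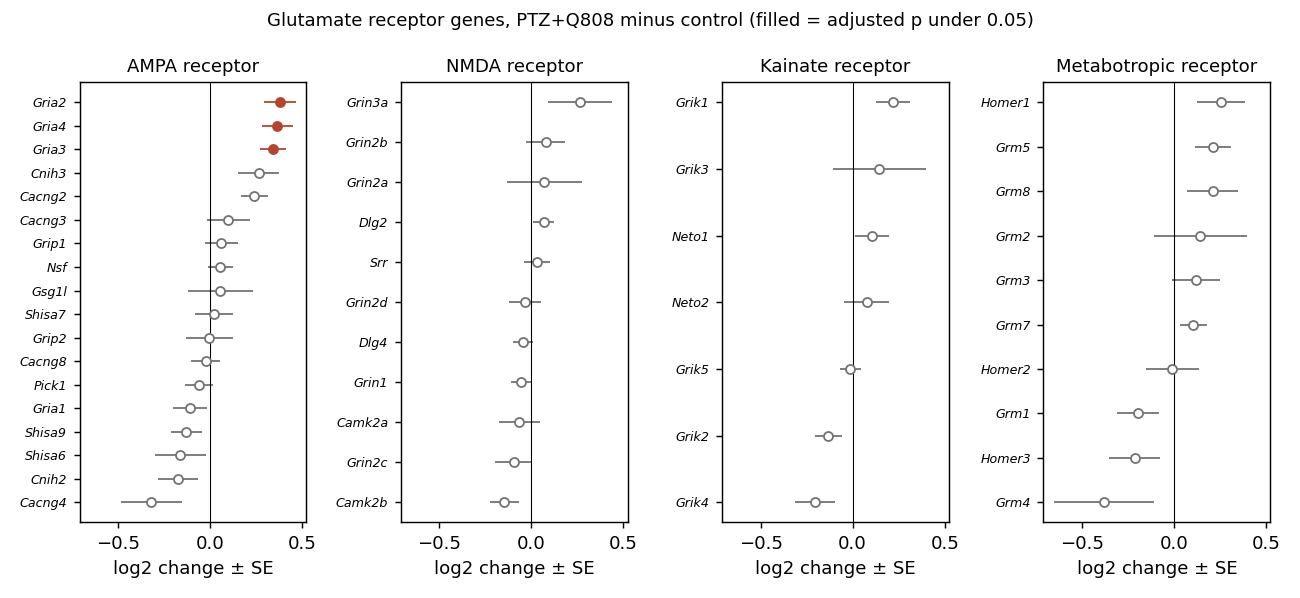
Log2 change of PTZ+Q808 minus control with its SE (horizontal axis) for each tested gene of the AMPA, NMDA, kainate and metabotropic glutamate receptor lists (one row per gene). Filled red points passed an adjusted p of 0.05. The filled points are Gria2, Gria4 and Gria3 in the AMPA panel, and no gene of the other panels is filled.

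Among voltage-gated channels few genes changed. Fgf12, an intracellular partner of sodium channels, had 32.5 to 38.0 FPKM in PTZ+Q808 and 23.2 to 28.5 FPKM in control (log2 change 0.50 ± 0.0886, adjusted p = 0.0204), and it was the only one of 12 tested sodium channel genes to pass. Cacna2d1, the alpha2delta subunit of calcium channels that binds gabapentin, had 33.0 to 39.2 FPKM in PTZ+Q808 and 24.5 to 27.1 FPKM in control (log2 change 0.47 ± 0.0854, adjusted p = 0.0215), the only call of 15 calcium channel genes. None of 38 potassium channel genes or 5 HCN channel genes passed in limma. The potassium channel gene with the smallest p was Dpp10, an auxiliary subunit of Kv4 channels, at 9.76 to 14.7 FPKM in PTZ+Q808 and 7.65 to 10.9 FPKM in control (adjusted p = 0.0674). Of 23 tested synaptic adhesion genes, 2 rose (8.7%, against 2.87% of all genes). Nlgn1, a postsynaptic neuroligin of excitatory synapses, had 9.67 to 11.5 FPKM in PTZ+Q808 and 7.14 to 7.96 FPKM in control (log2 change 0.47 ± 0.0827, adjusted p = 0.0199). Lrrtm3, a postsynaptic partner of neurexins, rose by 0.43 ± 0.0939 (adjusted p = 0.0310). Synaptic vesicle genes had 0 calls among 28, and neuropeptide genes 0 among 18 (limma). Neuronal markers had 0 calls among 13 and a median of 0.02, and the summed level of that list was 3090 to 3480 FPKM in PTZ+Q808 and 2610 to 3220 FPKM in control.

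Of the 58 lists examined, that of splicing factors held the most genes that rose. Of 63 tested splicing factors, 10 rose and 1 fell (17.5% called), with a median log2 change of 0.11. Srsf5, a serine/arginine-rich activator of splicing, had 142, 165, 154, 114 and 161 FPKM in PTZ+Q808 and 85.6, 92.4, 94.6 and 81.2 FPKM in control. The groups did not overlap, although replicate 4 was the lowest of PTZ+Q808, and the log2 change was 0.72 ± 0.101 (adjusted p = 0.00823). Ddx5, an RNA helicase of the spliceosome, was the most abundant of the named genes that rose without overlap between the groups. It had 208, 199, 204, 179 and 226 FPKM in PTZ+Q808 and 156, 173, 155 and 151 FPKM in control (log2 change 0.35 ± 0.0684, adjusted p = 0.0226). Hnrnpdl, an RNA-binding paralog of Hnrnpd, rose by 0.40 ± 0.0829 (adjusted p = 0.0272), with 1 PTZ+Q808 library below the highest control. Pnisr, a serine/arginine-rich nuclear protein, rose by 0.43 ± 0.0949 (adjusted p = 0.0321). Rsrp1, an arginine/serine-rich protein, fell: it had 43.3, 46.3, 55.1, 47.4 and 59.9 FPKM in PTZ+Q808 and 62.4, 72.1, 84.0 and 85.8 FPKM in control (log2 change -0.58 ± 0.130, adjusted p = 0.0331).

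Translation factors had 6 rises and no fall among 57 tested (10.5%), although the median of the list was 0.00 and 27 members had a positive change. Eif2s2, the beta subunit of the factor that brings the initiator tRNA, had 43.3 to 56.4 FPKM in PTZ+Q808 and 33.9 to 38.4 FPKM in control (log2 change 0.47 ± 0.0901, adjusted p = 0.0226). Eif3a, the largest subunit of eIF3, rose by 0.34 ± 0.0660 (adjusted p = 0.0229), and Eif5, which triggers GTP hydrolysis on the scanning ribosome, by 0.24 ± 0.0582 (adjusted p = 0.0411). Genes of the cytosolic ribosome, of the mitochondrial ribosome and of oxidative phosphorylation had 0 calls each in limma among 81, 73 and 77 tested, with medians of -0.01, -0.04 and -0.02.

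Of 83 tested ubiquitin and proteasome genes, 7 rose and none fell (8.43%), 57 had a positive change and the median was 0.07. Their list mean was 4.83, 4.82, 4.81, 4.82 and 4.85 in PTZ+Q808 and 4.73, 4.74, 4.72 and 4.73 in control, without overlap. Several other list means did not overlap either. Among them, AU-rich element proteins had 3.72 to 3.82 in PTZ+Q808 and 3.55 to 3.67 in control. Sterol and fatty acid synthesis genes had 4.85 to 4.92 in PTZ+Q808 and 4.94 to 5.03 in control. Cul4b, a scaffold of cullin-RING ligases, had 10.1 to 12.8 FPKM in PTZ+Q808 and 7.29 to 10.1 FPKM in control (log2 change 0.47 ± 0.0924, adjusted p = 0.0231). Psmc6, an ATPase of the proteasome base, had 31.4 to 39.9 FPKM in PTZ+Q808 and 23.9 to 27.5 FPKM in control (log2 change 0.45 ± 0.103, adjusted p = 0.0372). Among 84 tested chromatin genes, 2 rose and 1 fell (3.57%, near the 2.87% of all genes). Smarca5, the ATPase of ISWI remodelling complexes, rose by 0.57 ± 0.103 (adjusted p = 0.0215) and Atrx, a helicase that deposits histone H3.3, by 0.48 ± 0.0935 (adjusted p = 0.0226). Crebbp, the acetyltransferase that CREB recruits, had 3.80, 4.18, 3.27, 3.57 and 3.01 FPKM in PTZ+Q808 and 4.31, 4.94, 4.98 and 4.76 FPKM in control, and fell by 0.34 on the log2 scale (SE 0.0816, adjusted p = 0.0429).

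**Figure D4:**
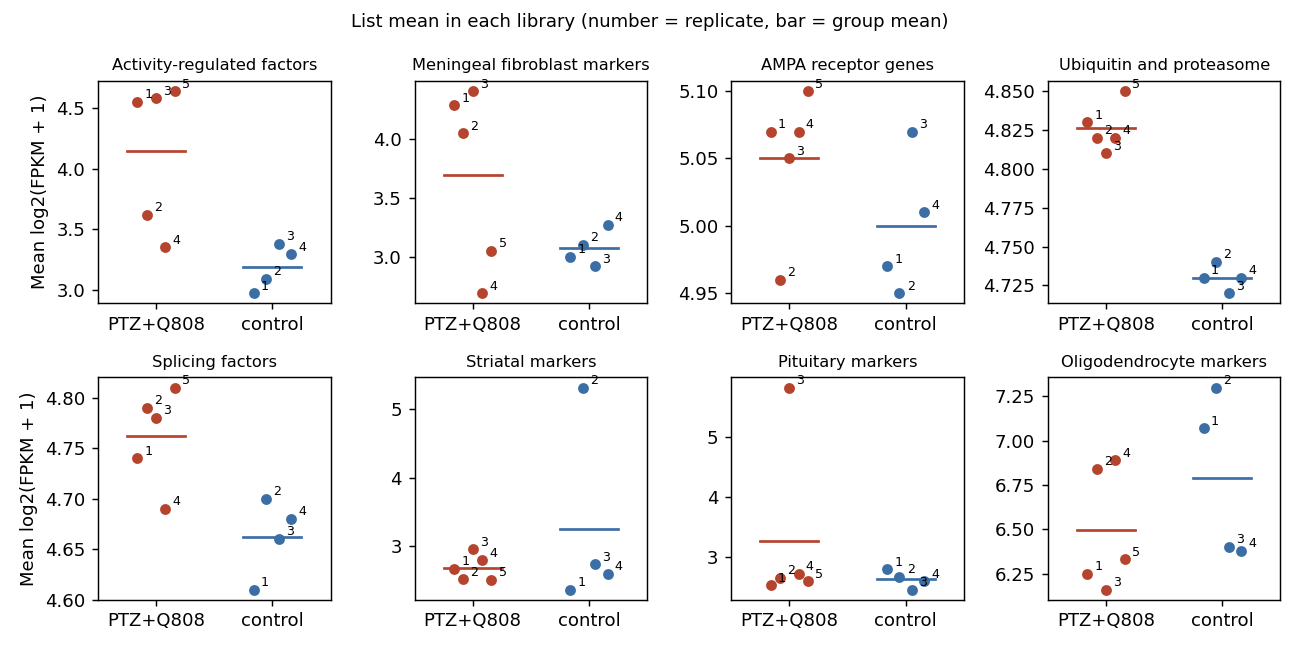
Mean log2(FPKM + 1) over the members of 8 gene lists (vertical axes, each with its own range that does not begin at 0) in the PTZ+Q808 libraries (left, red) and the control libraries (right, blue); numbers are replicates and bars are group means. Activity-regulated factors are high in PTZ+Q808 replicates 1, 3 and 5, and meningeal markers in replicates 1, 2 and 3. Of the lists shown, the ubiquitin and proteasome list does not overlap between the groups, which also held for some lists not shown.

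The genes that fell included factors of Wnt and Notch signalling and of glial or progenitor identity. Of 39 tested genes on that list, 5 fell and 1 rose (15.4% called), and 25 had a negative change. In bulk tissue, fewer cells of a type and less RNA per cell cannot be told apart. Sox9, the transcription factor of astrocytes and neural stem cells, had 3.84, 3.49, 3.36, 4.21 and 5.11 FPKM in PTZ+Q808 and 8.30, 7.15, 6.78 and 6.72 FPKM in control. The log2 change was -0.73 ± 0.136 (adjusted p = 0.0226), and rats given PTZ and vehicle had 2.86 to 4.77 FPKM. Mycn, a Myc-family factor of progenitor growth, had 1.97, 2.17, 2.03, 2.65 and 1.30 FPKM in PTZ+Q808 and 3.97, 3.71, 3.56 and 3.28 FPKM in control (log2 change -0.63 ± 0.114, adjusted p = 0.0215). Axin2, an inhibitor and direct target of Wnt signalling, had 3.12 to 4.62 FPKM in PTZ+Q808 and 5.77 to 6.83 FPKM in control (log2 change -0.60 ± 0.140, adjusted p = 0.0381). Hhex, a homeobox factor, fell to 0.668 to 0.982 FPKM in PTZ+Q808, against 1.36 to 2.41 FPKM in control (adjusted p = 0.0226). Hey1, an effector of Notch, had 9.21 to 11.5 FPKM in PTZ+Q808 and 13.4 to 15.7 FPKM in control (log2 change -0.38 ± 0.0729, adjusted p = 0.0226). The member that rose was Id2, an inhibitor of basic helix-loop-helix factors, with 102 to 125 FPKM in PTZ+Q808 and 76.1 to 97.0 FPKM in control (log2 change 0.33 ± 0.0826, adjusted p = 0.0482).

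Sox9 was the only one of 19 tested astrocyte markers to be called, and that list's summed level was 5100 to 5900 FPKM in PTZ+Q808 and 5500 to 5860 FPKM in control. Of the 19, 15 had a negative change, and the median was -0.08. Oligodendrocyte markers were lower on balance but 0 of 15 passed (limma). Of the 15, 13 had a negative change, the median was -0.37, and the summed level was 3270 to 5760 FPKM in PTZ+Q808 and 4140 to 8170 FPKM in control. Without control replicate 2 and PTZ+Q808 replicate 3 the oligodendrocyte median was -0.09. Sox10, the lineage factor of these cells, had 18.4 to 28.8 FPKM in PTZ+Q808 and 22.9 to 35.2 FPKM in control (adjusted p = 0.0716). The part of these cells in the falls given above was not tested.

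The largest fall of all, C1qtnf9, a secreted C1q/TNF-related protein, was at low levels. It had 0.149, 0.595, 0.769, 0.547 and 0.573 FPKM in PTZ+Q808 and 1.25, 3.48, 1.73 and 1.33 FPKM in control (log2 change -0.90 ± 0.201, adjusted p = 0.0331). Epha8, an ephrin receptor of axon guidance, had 4.52, 5.32, 2.84, 4.90 and 5.77 FPKM in PTZ+Q808 and 7.92, 8.42, 7.56 and 8.38 FPKM in control (log2 change -0.70 ± 0.155, adjusted p = 0.0321). Of 37 tested growth factor genes, 8.11% were called, against 2.87% of all genes. Epha8 was the only fall, while Acvr2a (0.44 ± 0.0855, adjusted p = 0.0230) and Bmpr2 (0.41 ± 0.0864, adjusted p = 0.0282), both receptors of the TGF-beta superfamily, rose. Wfikkn1, a secreted binder of growth factors of that superfamily, had 0.372 to 1.11 FPKM in PTZ+Q808 and 1.38 to 1.98 FPKM in control (log2 change -0.52 ± 0.126, adjusted p = 0.0413). Rpia, an enzyme of the pentose phosphate pathway, had 3.14 to 4.17 FPKM in PTZ+Q808 and 4.96 to 6.43 FPKM in control (log2 change -0.51 ± 0.103, adjusted p = 0.0243).

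Genes of sterol and fatty acid synthesis leaned downward by small amounts. Of 30 tested, 2 fell and none rose (6.67%), 25 had a negative change, and the median was -0.14. Fdft1, which makes squalene, had 37.1, 38.2, 37.2, 35.7 and 35.0 FPKM in PTZ+Q808 and 42.8, 43.9, 49.7 and 42.0 FPKM in control (log2 change -0.28 ± 0.0548, adjusted p = 0.0240). Dhcr7, the last enzyme of cholesterol synthesis, had 9.77 to 11.8 FPKM in PTZ+Q808 and 12.3 to 13.9 FPKM in control (log2 change -0.28 ± 0.0642, adjusted p = 0.0374). Slc25a1, the mitochondrial carrier that exports citrate for lipid synthesis, had 20.4, 21.7, 20.1, 22.0 and 19.1 FPKM in PTZ+Q808 and 27.2, 28.9, 26.3 and 24.3 FPKM in control (log2 change -0.35 ± 0.0603, adjusted p = 0.0171). It was one of 4 falls and 3 rises among 231 tested solute carriers (3.03%, near the 2.87% of all genes). Slc4a10, a sodium bicarbonate transporter of neurons, was among the rises, at 43.5 to 59.4 FPKM in PTZ+Q808 and 37.7 to 43.0 FPKM in control (log2 change 0.37 ± 0.0788, adjusted p = 0.0301).

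In large families most genes were not called. Of 219 tested zinc finger genes, 4 rose and 8 fell (5.48%, against 2.87% of all genes). Besides Zfp36, the rises were Zfp638, Zfp40 and Zfp182, with log2 changes of 0.38, 0.36 and 0.41, and the falls included Zfp394 (-0.47 ± 0.0943, adjusted p = 0.0243) and Zfp282 (-0.43 ± 0.0897, adjusted p = 0.0272). Among 104 TRIM and RING finger genes 4 were called (3.85%, near the 2.87% of all genes), all of them falls. Trim46, which organises microtubules at the axon initial segment, had 18.6 to 20.4 FPKM in PTZ+Q808 and 23.6 to 24.7 FPKM in control (log2 change -0.30 ± 0.0525, adjusted p = 0.0204). Abundant genes changed by small amounts. Cadm4, a cell adhesion molecule of axons and glia, had 170 to 192 FPKM in PTZ+Q808 and 203 to 219 FPKM in control (log2 change -0.23 ± 0.0557, adjusted p = 0.0409), and Maf1, the repressor of RNA polymerase III, had 53.6 to 58.9 FPKM in PTZ+Q808 and 63.4 to 67.1 FPKM in control (log2 change -0.20 ± 0.0429, adjusted p = 0.0301). In the other direction, Pafah1b1, the dynein regulator also called LIS1, had 128 to 137 FPKM in PTZ+Q808 and 105 to 110 FPKM in control (log2 change 0.28 ± 0.0535, adjusted p = 0.0226).

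Several stress and immune programmes gave no call in limma. Interferon response, antioxidant (Nrf2), heat shock and microglial lists had 0 calls among 22, 22, 28 and 14 tested genes, with medians of -0.12, 0.05, 0.06 and 0.02. Of the 22 interferon response genes, 18 had a negative change and 4 a positive one. Ifit3, an interferon-induced protein, was among the 4, with 1.08 to 4.41 FPKM in PTZ+Q808 and 0.574 to 1.09 FPKM in control (adjusted p = 0.0547). Irf1, an interferon regulatory factor, was among the 18, with 2.56 to 4.13 FPKM in PTZ+Q808 and 3.79 to 4.88 FPKM in control (limma adjusted p = 0.119). Dnajb4, a co-chaperone, had 21.1 to 33.8 FPKM in PTZ+Q808 and 16.6 to 19.5 FPKM in control (adjusted p = 0.0556). S100a9, a neutrophil protein, had 2.73 to 8.44 FPKM in PTZ+Q808 and 0.589 to 1.74 FPKM in control, without overlap (adjusted p = 0.0725).

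The number of called genes changed strongly when single libraries were left out. It was 17 without control replicate 1 and 673 without PTZ+Q808 replicate 4, the lowest and highest of the counts with 1 library left out, and 57 (52 higher, 5 lower) without control replicate 2 and PTZ+Q808 replicate 3. Without the 3 libraries low in Ttr, one of which belongs to the PTZ and vehicle group, 0 genes were called in limma (smallest adjusted p = 0.0715, 1884 genes at an unadjusted p under 0.05). When 1 of the 9 libraries at a time was left out, 16 genes were called in all 9 fits, and all 16 rose. Apold1, Zfp36, Nfkbia, Srsf5 and Gabrb2 were among them. Others, named after their values were seen, were Bclaf1, Cast, Dnm1l, Eea1, Gcc2, Marchf7, Nop58, Rock2, Strbp and Tceal9. Atf3, Npas4, Fos and Gadd45g were called in 2 of the 9 fits, Maff and Dusp1 in 4, Sox9 in 4 and Mycn in 6. Without control replicate 2 and PTZ+Q808 replicate 3, 10 of the called genes described in the earlier paragraphs were still called: Apold1, Cyr61, Zfp36, Nfkbia, Gabrb2, Srsf5, Cul4b, Hey1, Zfp638 and Zfp282, with adjusted p of 0.0120 (Gabrb2) to 0.0479 (Hey1). So were the genes just named after their values were seen, except Cast (adjusted p = 0.0613). The other called genes named above were not. The adjusted p was 0.0663 for Dusp1, 0.122 for Npas4, 0.147 for Fos, 0.0936 for Gria2, 0.0729 for Cacna2d1, 0.0685 for Nlgn1, 0.0729 for Sox9 and 0.0836 for Epha8, and 0 of the 45 activity-regulated factors were called, with a median of 0.71.

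**Figure D5:**
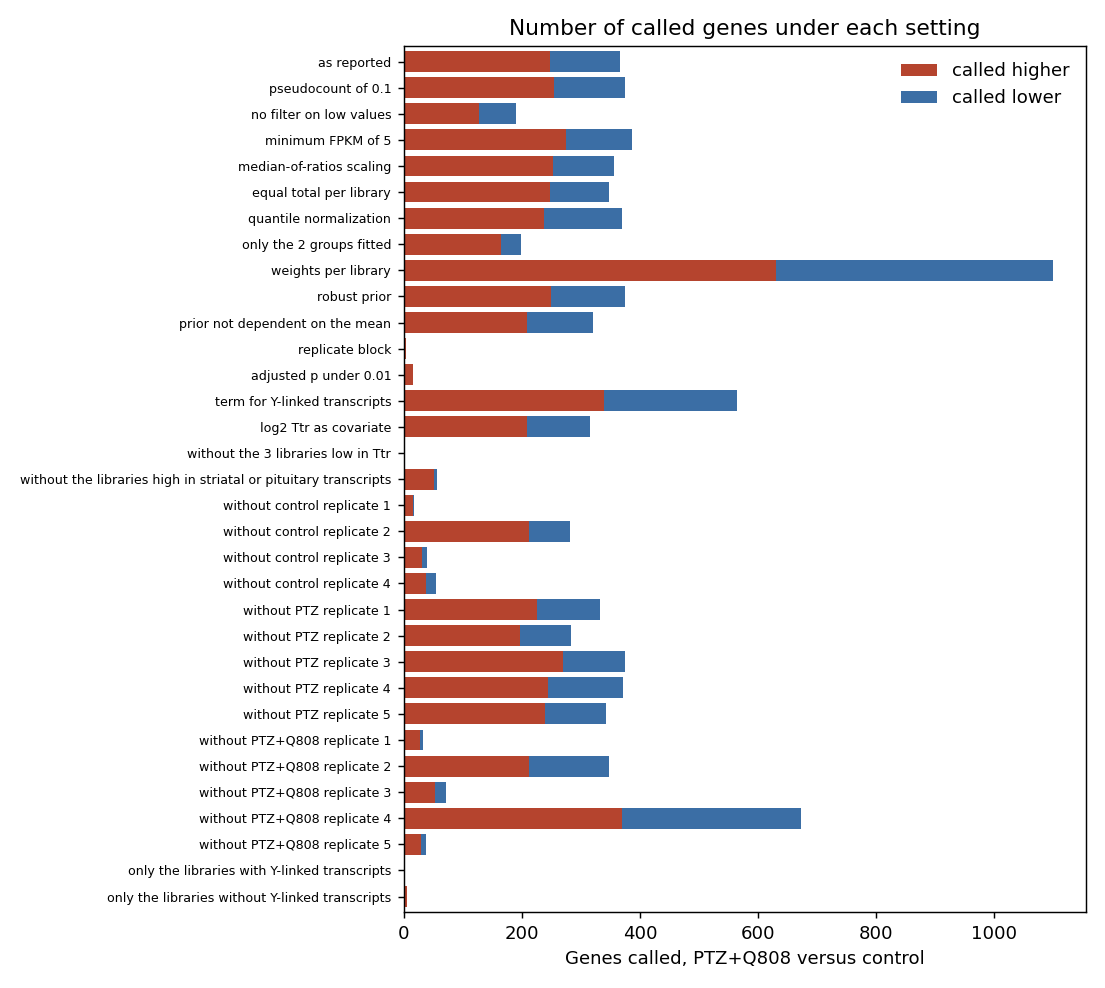
Number of genes called higher (red) and lower (blue) in PTZ+Q808 versus control (horizontal axis) under the reported setting and each alternative (rows). The bars run from 0 genes without the 3 libraries low in Ttr to 1100 with weights per library.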

How the data were processed

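The authors deposited FPKM values per gene and sample. Per the submitters' processing notes, reads passed through Trimmomatic, HISAT2, Bowtie2, SAMtools, StringTie, Cufflinks, HTSeq and DESeq in roles and versions not stated, and the genome build was not given in the sources used here. Library totals were not used, so the depth is unknown and intervals for counting error could not be given. Among 1304 genes of low level, 99.3% of positive values lay on a ladder of equal steps, within 0.12 of a step, which gave relative depths of 0.885 to 1.04 (ratios of 0.5 to 2 were searched). In FPKM that step differs between genes, and no reads were recovered.

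From these values log2(FPKM + 1) was computed without further scaling. The pseudocount of 1 shrinks changes of genes of low level. All 3 groups were fitted in limma 3.58.1 (R 4.3.3) with a mean-dependent prior and 11 residual degrees of freedom. Tests were two-sided, with Benjamini-Hochberg adjustment over the 12744 tested genes. Figures were drawn with matplotlib 3.10.9. Library names and groups came from the labels. The fit was checked on simulated data with known changes.

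The genes and the 58 lists were chosen with earlier results of these data known. Genes were named by a rule: of the called genes without overlap between groups, at 1 FPKM or more on average in the higher group and with a symbol that is no placeholder, the 10 with the highest and the 10 with the lowest log2 change, the 5 of highest level in each direction among these, up to 4 called members with the smallest p per list and direction (or the 2 of smallest p where a list had none), and marker genes. Some genes and lists that met this rule are left out here. Lists were described by counts and medians, without a set test. Symbols are those of the files. Of the gene identifiers, 20633 matched RefSeq (GRCr8), used for names. Symbols of 12 genes appeared as dates and were looked up by identifier. No 2 libraries held identical values, and each library was counted as 1 rat.

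Alternatives were no filter or a minimum of 5 FPKM, a pseudocount of 0.1, quantile normalization, equal totals, median-of-ratios scaling, fitting the 2 groups alone, weights per library, a robust prior, a prior not dependent on the mean, the replicate number as a block, an adjusted p under 0.01, a term for Y-linked transcripts, log2 Ttr as a covariate, and leaving out libraries. Fits within the libraries with and without Y-linked transcripts were chosen after seeing the data.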

Additional observations from a re-analysis of the deposited data

Results flagged for a closer look

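In 226 sets of values (each named gene and 9 lists, within PTZ+Q808 and within control), 9 held 1 library far from the rest by Dixon's ratio at the 95% level, which chance gives in about 1 of 20. The pituitary list mean of PTZ+Q808 replicate 3 was 5.83, against 2.52 to 2.71 in the other PTZ+Q808 libraries, and the striatal list mean of control replicate 2 was 5.32, against 2.37 to 2.74 in the other controls. In PTZ+Q808 replicate 3, Dusp10 was 3.65 FPKM, against 4.23 to 4.34 in the other 4, and Wfikkn1 was 0.372 FPKM, against 0.904 to 1.11. In PTZ+Q808 replicate 4, Sox10 was 28.8 FPKM, against 18.4 to 20.1 in the other 4, and Nefm, a neurofilament subunit, was 66.8 FPKM, against 81.1 to 86.9. In PTZ+Q808 replicate 2, Zfp263 was 1.19 FPKM, against 1.08 to 1.11. In control replicate 2, Napb, a SNAP protein of vesicle fusion, was 100.0 FPKM, against 119 to 121 in the other 3, and Zfp638 was 9.63 FPKM, against 7.36 to 7.54.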

How the results depend on the processing

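The 366 calls (247 higher, 119 lower) stayed within 1.5 times with a minimum of 5 FPKM, a pseudocount of 0.1, equal totals, median-of-ratios scaling, quantile normalization, a robust prior, a prior not dependent on the mean and log2 Ttr as a covariate (316 to 386 calls). No filter on low values, which tested more genes, gave 190 (128 higher, 62 lower), and fitting only the 2 groups gave 199 (164 higher, 35 lower), of which 181 were shared with the 366. Weights per library gave 1100 (631 higher, 469 lower), a term for Y-linked transcripts 564 (339 higher, 225 lower), and an adjusted p under 0.01 gave 15 (15 higher, 0 lower). The replicate number as a block gave 4 calls (4 higher, 0 lower), namely Apold1, Marchf7, Srsf5 and Nsrp1, named after their values were seen. Deviations of same-numbered libraries correlated at -0.13, 0.05, -0.21 and -0.001, so the numbers were not taken to pair the rats. Without the 3 libraries low in Ttr there were 0 calls in each direction. Without control replicate 2 and PTZ+Q808 replicate 3 there were 57 (52 higher, 5 lower). Leaving out 1 library gave 17 to 673 calls, 16 to 370 higher and 1 to 303 lower. The lowest was without control replicate 1, and counts were 32, 38, 40, 54 and 72 without PTZ+Q808 replicate 1, PTZ+Q808 replicate 5, control replicate 3, control replicate 4 and PTZ+Q808 replicate 3. The highest was without PTZ+Q808 replicate 4. All 366 called genes kept the sign of their change in each of the 30 alternatives. Those fits share most of their libraries, and the genes were chosen by the fit as reported. Only the libraries with Y-linked transcripts gave 0 calls in each direction, and only those without gave 5 (5 higher, 0 lower), among them Apold1, Zfp36, Npas4 and Fos. A test of whether the difference from control depended on Y-linked transcripts gave 0 genes in limma (smallest adjusted p = 0.358, 803 genes at an unadjusted p under 0.05). The causes were not tested. With 5 and 4 rats, a gene that was not called may still differ. FPKM hold no library totals, and low genes such as C1qtnf9, Wfikkn1 and Hhex rest on few fragments.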

Other observations

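Further genes named by the same rule were these. Rab18, a GTPase of lipid droplets and the endoplasmic reticulum, had 46.1 to 52.5 FPKM in PTZ+Q808 and 40.9 to 43.4 FPKM in control (log2 change 0.20 ± 0.0495, limma adjusted p = 0.0460). Arhgef2, a microtubule-bound guanine nucleotide exchange factor, had 12.7 to 16.7 FPKM in PTZ+Q808 and 17.4 to 19.3 FPKM in control (log2 change -0.32 ± 0.0725, limma adjusted p = 0.0365). Sgk1, a kinase that glucocorticoids induce, had 51.2, 59.0, 54.0, 71.0 and 88.9 FPKM in PTZ+Q808 and 18.3, 29.2, 37.3 and 41.8 FPKM in control. Its groups did not overlap, and it did not pass (log2 change 1.04 ± 0.284, limma adjusted p = 0.0619). Sgk1 was not lowest in PTZ+Q808 replicates 2 and 4, unlike Fos. Vip, a neuropeptide of interneurons, had 13.8 to 16.8 FPKM in PTZ+Q808 and 7.99 to 12.6 FPKM in control, again without overlap and without passing (limma adjusted p = 0.0752). Itgam, a microglial and myeloid integrin, had 1.44 to 3.24 FPKM in PTZ+Q808 and 3.25 to 3.95 FPKM in control (limma adjusted p = 0.0864).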
